A study of Sus scrofa with 3 samples.

Results

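Heat shock proteins and the DNAJ proteins that work with them form the main machinery for folding, refolding and disposing of proteins. Members of the HSP70 family (HSPA genes) bind unfolded stretches of a client protein in a cycle driven by ATP, and DNAJ proteins, also called J proteins or HSP40, deliver the clients and start the ATP step through their J domain. HSP90 acts later and keeps kinases and steroid receptors, the androgen receptor among them, in a form that can be activated. Small heat shock proteins (HSPB genes) hold unfolded proteins in solution without ATP and are abundant in muscle, and the chaperonins HSPD1 and HSPE1 fold proteins inside mitochondria. The genes described here are those of type mRNA in the deposited annotation whose names begin with HSPA, HSPB, HSPD, HSPE, HSPH or HSP90, or with DNAJA, DNAJB or DNAJC and a number. There were 61 such genes among 22826 mRNA genes. They comprised 2 genes of the HSP90 family, 12 of the HSPA and HSPH families, 2 chaperonins, 6 named HSPB, 4 named DNAJA, 10 named DNAJB and 23 named DNAJC. The other 2, HSPBP1 and HSPBAP1, are cofactors rather than heat shock proteins, and HSPB11 is a component of intraflagellar transport.

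RNA was sequenced from visceral (retroperitoneal) adipose tissue of Chinese Wuzhishan miniature male pigs, 6 to 7 months old at the start, that all ate a diet rich in fat and cholesterol (HFC diet) for 12 weeks. IM pigs were intact and had only skin incisions, CM pigs were castrated, and CMT pigs were castrated and injected each week with testosterone propionate at 10 mg/kg body weight in corn oil. RNA of 4 to 6 pigs per group by the labels, 4 by the methods, was pooled into 1 library per group. No difference between groups therefore has a replicate check, and every comparison is between 3 pools. The expression value, UQRPKM, is the number of reads on a gene per kilobase of its length, adjusted to each library's upper quartile, so that levels can be compared between genes and between libraries. Levels and read numbers are given in the order IM, CM, CMT throughout. Whole reads, recovered from the values, totalled 16611931, 15561124 and 15106608. The 95% intervals given with log2 ratios are exact Clopper-Pearson intervals from these reads. They cover counting error only, and neither the spread between pigs nor amplification.

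The adipose label was borne out by ADIPOQ, the adipocyte hormone adiponectin, at 63873 to 74928 UQRPKM. Markers of other tissues, however, stood apart in each castrated group. Genes of a list of skeletal muscle markers summed to 224, 198 and 8427 UQRPKM. In that list all 15 genes that reached 1 UQRPKM in both libraries stood 1.5-fold or more above CM in CMT, where 9.53% of all mRNA genes did. CKM, MB, TNNT3 and SMPX, however, were listed at 0 in every library. Genes of a list of liver markers summed to 2560, 10354 and 1737 UQRPKM, and ALB (albumin) stood at 10, 10612 and 15 reads. Genes of a list of mesothelial markers, the cells that line the body cavity, summed to 122, 205 and 495 UQRPKM. Of the 5 that reached 1 UQRPKM, 3 were called higher, by 1.5-fold or more, in CM than in IM, where 8.38% of all mRNA genes were. In CMT 4 were called higher than in CM and in IM, where 9.53% and 8.81% of all were. The remaining gene, KRT18, was called lower in CMT than in CM and in IM, where 9.97% and 11.9% of all were. Genes of a list of adipocyte markers summed to 159911, 152142 and 126127 UQRPKM. In these bulk samples fewer cells of a type and less RNA per cell cannot be told apart.

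**Figure D1:**
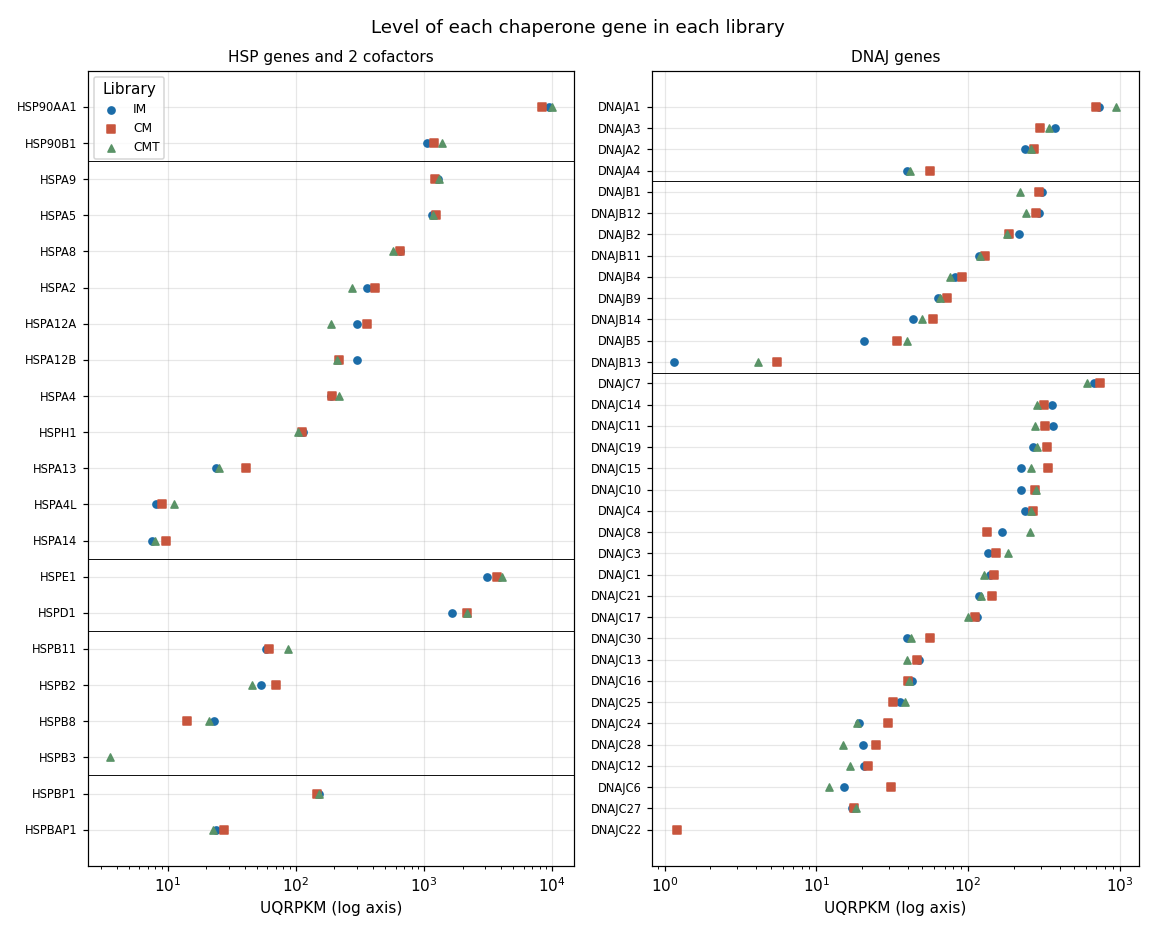
Level of each chaperone gene with a value above 0 in the IM, CM and CMT libraries, in UQRPKM on a log axis, with genes on the vertical axis and horizontal lines between families. Each point is 1 library of pooled RNA, and libraries at 0 have no point; the highest gene is HSP90AA1, and for most genes the 3 points lie close together.

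Of the 61 genes, 54 were above 0 in all libraries and 2 in some. The other 5 were listed at 0 in every library. Among the last were DNAJC5, the cysteine string protein of secretory vesicles, HSPB7, a small heat shock protein of heart and skeletal muscle, and HSPA1L, a close relative of the inducible HSP70 genes. HSPB9 and DNAJB7 made up the rest. A listing at 0 is not evidence of absence here, since CKM was listed at 0 in the CMT library although ACTA1, the skeletal muscle actin, had 9176 reads there. HSPB3, a muscle small heat shock protein, had 2 reads in CMT and was listed at 0 in IM and CM, and DNAJC22 had 3 reads in CM alone. Counts of this size do not separate the libraries.

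The 54 genes above 0 everywhere all had at least 1 UQRPKM in every library. They tended to be well expressed, with medians of 137, 145 and 127 UQRPKM over the members above 0, beside 50.5, 50.6 and 49.8 over all mRNA genes above 0. Together the 61 genes made up 0.414%, 0.428% and 0.462% of the summed level of all mRNA genes. The same 6 genes led in every library and held 68.7%, 68.1% and 72.1% of the members' summed level. These were HSP90AA1, the chaperonin pair HSPE1 and HSPD1, the mitochondrial HSP70 HSPA9, and HSPA5 and HSP90B1 of the endoplasmic reticulum.

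Most of the genes differed little among the 3 pools. The highest library exceeded the lowest by less than 1.2-fold for 19 of 54 genes, or 35.2%, beside 28.7% of the 13858 mRNA genes with at least 1 UQRPKM in every library. It did so by less than 1.5-fold for 43 genes, or 79.6%, beside 67.2% of all mRNA genes, and by less than 2-fold for 52 genes, or 96.3%, beside 85.4%. The median of this highest-to-lowest fold was 1.27 for the members and 1.33 for all. HSPBP1, which releases nucleotide from HSP70, varied least at 1.04-fold, followed by DNAJC27 at 1.05-fold, DNAJC16 at 1.06-fold, HSPA5 at 1.07-fold and HSPA9 at 1.09-fold. The members were more highly expressed than the average gene, as given above, and the part of expression level in this contrast was not tested.

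CM was the library with the highest level for 27 of the 54 genes, or 50.0%, beside 29.1% of all mRNA genes. IM was highest for 13 genes, or 24.1%, beside 42.8% of all mRNA genes, and CMT for 14, or 25.9%, beside 28.1%. The lowest level was in IM for 24 genes, or 44.4%, beside 27.5% of all mRNA genes, in CMT for 21 genes, or 38.9%, beside 39.0%, and in CM for 9, or 16.7%, beside 33.5%. This is a statement on order alone and includes genes whose libraries lie within counting error.

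A gene was called different between 2 libraries when their levels lay 1.5-fold or more apart and neither was under 1 UQRPKM, which are the thresholds of the study without its test. CM versus IM addresses the effect of castration. Of the 54 genes, 5 were called higher in CM, or 9.26%, where 8.38% of all mRNA genes were called higher. One gene, HSPB8, was called lower, or 1.85%, where 10.4% of all mRNA genes were. The median log2 ratio was 0.14 for the members and -0.06 for all mRNA genes.

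CMT versus CM addresses the effect of testosterone replacement. Only DNAJC8 was called higher in CMT, where 9.53% of all mRNA genes were called, and 7 genes were called lower, or 13.0%, where 9.97% of all mRNA genes were. The median log2 ratio was -0.15 for the members and -0.02 for all. CMT versus IM sets the treated castrates against intact pigs. Here 3 genes were called higher, where 8.81% of all mRNA genes were, and HSPA12A alone was called lower, where 11.9% of all were. The median was 0.03 for the members and -0.08 for all. The CM library enters the first 2 comparisons and the IM library the first and the last, so the comparisons are not independent of each other.

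**Figure D2:**
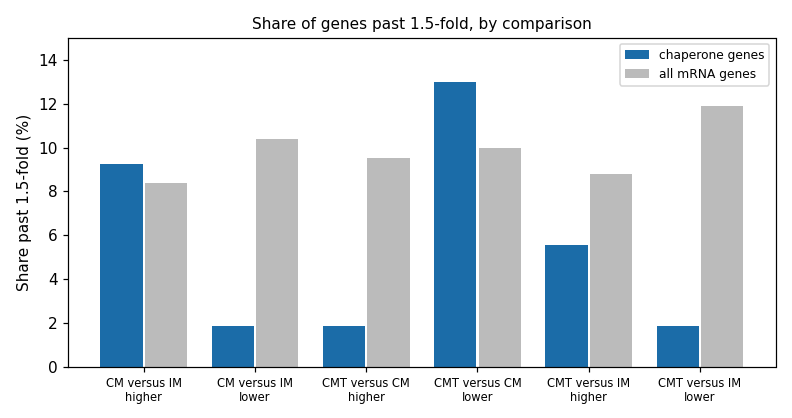
Share of genes past a 1.5-fold difference in each comparison and direction, in percent, for the 54 chaperone genes that reached 1 UQRPKM in each library (blue) and for all mRNA genes tested (grey). The chaperone genes stand below all mRNA genes in 4 of the 6 bars, and above them among genes higher in CM than in IM (9.26% and 8.38%) and among genes lower in CMT than in CM (13.0% and 9.97%).

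The exact binomial test of 1 library's recovered reads against another's, with Benjamini-Hochberg adjustment over all mRNA genes with reads, asks whether 2 libraries differ by more than counting error and says nothing of the conditions. Added to the thresholds, it left 3 genes higher in CM than in IM (4.38% of all mRNA genes) and none lower (5.76%). HSPB8 just missed the limit, at an adjusted p of 0.0503 from this exact test. Between CMT and CM it left DNAJC8 higher (5.06%) and 6 genes lower (5.56%), and between CMT and IM it left 2 higher (4.58%) and 1 lower (7.37%). The MA-plot formula of DEGSeq, the study's tool, left 0 higher and 0 lower in CM than in IM (2.2% and 3.07% of all mRNA genes). It left 1 higher and 3 lower in CMT than in CM (2.79% and 3.01%), and 1 higher and 1 lower in CMT than in IM (2.56% and 3.94%). Without a limit on the fold, a rule chosen after seeing the data, the exact test called 17 genes higher in CM than in IM (12.6% of all mRNA genes) and 8 lower (22.1%). Set against CM, CMT had 9 genes higher (13.5%) and 14 lower (16.8%), and set against IM it had 11 higher (12.4%) and 11 lower (25.9%).

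In all, 11 genes passed the thresholds in at least 1 comparison and none passed in all 3. These were DNAJB5, DNAJB13, DNAJC6, DNAJC8, DNAJC24, DNAJC28, HSPA2, HSPA12A, HSPA13, HSPB2 and HSPB8. The other 43 of the 54 genes, or 79.6%, stayed under 1.5-fold throughout. Of all mRNA genes with at least 1 UQRPKM in every library 67.2% did so.

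**Figure D3:**
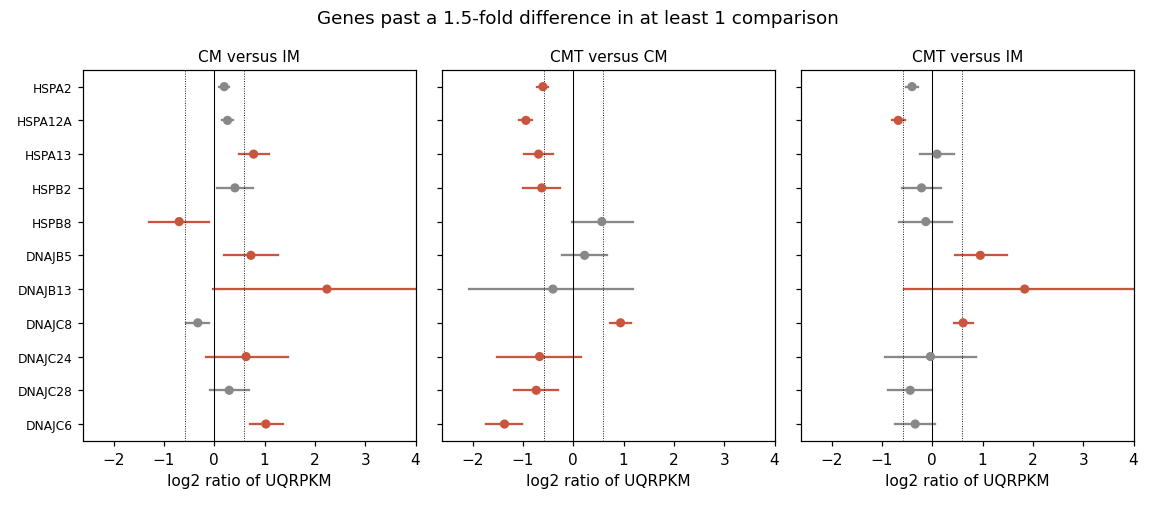
Log2 ratio of UQRPKM for the 11 genes past 1.5-fold in at least 1 comparison, 1 panel per comparison, with bars for the 95% counting interval and dotted lines at 1.5-fold. Red marks a call in that panel and grey none. The intervals of DNAJB13 run past the right edge in the panels against IM, and those of HSPA12A and HSPA2 are the narrowest.

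The HSP90 family was the most abundant. HSP90AA1, the cytosolic HSP90 that heat induces, had 9437, 8364 and 9965 UQRPKM, which put its mean above 99.3% of the expressed mRNA genes. CM was lowest, by -0.17 on the log2 scale against IM (95% interval -0.21 to -0.14), and CMT exceeded CM by 0.25 (0.22 to 0.29). HSP90B1, the HSP90 of the endoplasmic reticulum known as GRP94, had 1051, 1195 and 1393 UQRPKM too. It was higher in both castrated groups than in IM, by 0.19 in CM (0.12 to 0.25) and 0.41 in CMT (0.35 to 0.47). HSP90AA1 shares much of its sequence with the gene deposited as HSPCB (HSP90AB1), and how the counting split such reads is not given in the sources used here.

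In the HSP70 family, the abundant housekeeping members were steady. HSPA9, or mortalin, pulls proteins into the mitochondrial matrix, and it had 1288, 1216 and 1319 UQRPKM. HSPA5, or BiP, is the HSP70 of the endoplasmic reticulum and a regulator of its stress response, and it had 1162, 1244 and 1186. HSPA8, the constitutive cytosolic HSP70, had 648, 654 and 569, a log2 ratio of -0.20 in CMT versus CM (-0.30 to -0.11). None of these differences came near 1.5-fold. The exchange factors of the HSP110 type, which reload HSP70 with ATP, also lay within 1.5-fold. HSPA4 had 186, 190 and 215 UQRPKM, and HSPH1 had 114, 112 and 104. HSPA4L was low, at 8.03, 9.08 and 11.2.

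The HSP70 genes that passed the thresholds were HSPA12A, HSPA13 and HSPA2. HSPA12A, a distant member of the family with an atypical ATPase domain, had 299, 359 and 187 UQRPKM, from 1209, 1384 and 742 reads. CMT stood apart at the low end, at 1.92-fold below CM, a log2 ratio of -0.94 (-1.07 to -0.81), and at -0.67 against IM (-0.81 to -0.54). HSPA2, the HSP70 that is most abundant in testis and needed for sperm formation, had 361, 414 and 273 UQRPKM. Its log2 ratio was -0.60 (-0.71 to -0.49) in CMT versus CM, just past the threshold and under it at -0.58 when libraries were scaled by total UQRPKM or by the median of ratios, and 0.20 (0.10 to 0.30) in CM versus IM. CMT was the lowest library for both genes, and it was also the lowest for the sum of the adipocyte marker list. Of that list 4 of 11 genes were called lower in CMT than in CM, where 9.97% of all mRNA genes were. Against IM 2 of 11 were called lower, where 11.9% of all were. The part of the adipocyte markers in the result was not tested.

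HSPA13, an HSP70 of the microsomal fraction, was high in CM alone, at 23.6, 40.6 and 25.2 UQRPKM from 150, 246 and 157 reads. The log2 ratio was 0.78 (0.48 to 1.09) in CM versus IM and -0.69 (-0.99 to -0.39) in CMT versus CM, and the IM and CMT libraries differed by 0.10 (-0.24 to 0.43). CM was also the library with the liver markers, whose part was not tested. HSPA12B, the endothelial relative of HSPA12A, had 299.6, 219 and 208 UQRPKM. It was highest in IM, with log2 ratios of -0.45 (-0.70 to -0.21) in CM and -0.52 (-0.77 to -0.28) in CMT, short of the threshold. Endothelial markers summed to 8663, 7717 and 8315 UQRPKM, also highest in IM, with median log2 ratios of -0.17 in CM and -0.16 in CMT against IM and none called, and their part was not tested. HSPA14, which sits with a J protein on the ribosome, had 7.58, 9.70 and 7.93 UQRPKM from 41, 50 and 42 reads.

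The chaperonins were the next most abundant. HSPE1 forms the lid and HSPD1 the barrel of the mitochondrial folding chamber. HSPE1 had 3115, 3695 and 4072 UQRPKM, and HSPD1 had 1645, 2182 and 2169. IM was lowest for both. The log2 ratios against IM were 0.25 (0.17 to 0.32) and 0.41 (0.33 to 0.48) in CM, and 0.39 (0.31 to 0.46) and 0.40 (0.32 to 0.48) in CMT. These lay outside counting error and under 1.5-fold. The ratio of HSPE1 to HSPD1, per length, was 1.89, 1.69 and 1.88.

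Few small heat shock proteins carried the name HSPB in the deposited annotation, and those that did were low. HSPB2, a muscle member that pairs with HSPB3, had 53.0, 70.5 and 45.7 UQRPKM from 123, 156 and 104 reads. It was highest in CM, 1.54-fold above CMT with an interval that left out 0 on the log2 scale, and CM lay above IM by 0.41 on the log2 scale (0.06 to 0.77). Its lowest value was in the library with the highest sum of skeletal muscle markers, whose part was not tested. HSPB8, which works with BAG3 to send damaged proteins to autophagy, was lowest in CM, at 22.8, 14.1 and 20.9 UQRPKM from 68, 40 and 61 reads. The CM value lay 0.70 below the IM value on the log2 scale, with an interval of the ratio from -1.30 to -0.11. HSPB11 was highest in CMT, at 58.5, 61.4 and 86.1 UQRPKM, and its log2 ratio of 0.56 (0.10 to 1.02) against IM fell just short of the threshold.

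Small heat shock proteins that the name rule did not take were far more abundant. RefSeq gene records for Sscrofa11.1 link 7 further names in the files to these families by gene ID or synonym and with a value above 0, and CRYAB is a small heat shock protein by another name. HSP27 (HSPB1), the heat-inducible small heat shock protein, had 982, 596 and 1044 UQRPKM, from 913, 528 and 951 reads. CM was the low library, with log2 ratios of -0.72 (-0.88 to -0.56) in CM versus IM and 0.81 (0.65 to 0.97) in CMT versus CM. HSPB8 had its lowest value in CM too, whereas CRYAB (alpha B crystallin) was highest there, at 2737, 3353 and 1726 UQRPKM.

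The difference of CRYAB in CMT versus CM was -0.96 on the log2 scale (-1.03 to -0.89). CMT was the library with the highest sum of skeletal muscle markers, whose part was not tested. LOC494560 (HSPB6), known from smooth and heart muscle, had 1041, 770 and 775 UQRPKM and was highest in IM. Smooth muscle markers summed to 6601, 4906 and 5066 UQRPKM, also highest in IM. In CMT versus IM 6 of the 7 tested had a ratio below 1, and DES ran the other way at a log2 ratio of 3.12. The part of the smooth muscle markers was not tested. HSPCB (HSP90AB1), the constitutive cytosolic HSP90, had 5520, 5540 and 6378 UQRPKM, so that HSP90AA1 exceeded it by 1.71, 1.51 and 1.56 times per length. Recovered reads ran the other way, at 23253, 22238 and 26326 for HSPCB and 14117, 11924 and 14607 for HSP90AA1. If the recovered reads are right, the order rests on gene length, and the recovered length of HSP90AA1 was 1004 bases. Recovery can set the reads and length of a gene too low together, so the order by reads is uncertain. The entries HSP70 and HSP70.2, names used for inducible HSP70 genes, were listed at 0 in all libraries. The inducible HSP70 genes are near-identical copies, so that reads on them are uncertain. Among the J proteins, LOC100525669 (DNAJB6) had 486, 445 and 498 UQRPKM and LOC100524673 (DNAJC18) had 149, 128 and 167. LOC100514533 (DNAJC2), the ribosomal partner of HSPA14, had 26.9, 29.5 and 39.1, and LOC100739807 (DNAJC9), a histone chaperone, had 5, 7 and 16 reads.

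**Figure D4:**
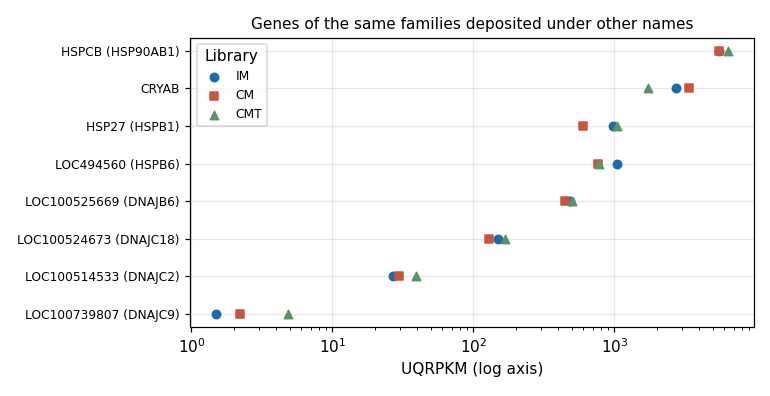
Level in UQRPKM, on a log axis, of genes of the same families whose deposited names fall outside the name rule, with the RefSeq symbol in parentheses. HSP27 (HSPB1) is lowest in CM (596 against 982 and 1044) and CRYAB is lowest in CMT (1726 against 2737 and 3353).

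DNAJA genes encode J proteins of the same build as the bacterial DnaJ. DNAJA1, a cytosolic partner of HSPA8, had 732, 700 and 948 UQRPKM. CMT was the high library, with log2 ratios of 0.44 (0.34 to 0.53) against CM and 0.37 (0.28 to 0.47) against IM. The ratio of HSPA8 to DNAJA1, per length, was 0.885, 0.934 and 0.600. DNAJA3, the mitochondrial member, had 371, 296 and 342 UQRPKM, lowest in CM. DNAJA2, also cytosolic, had 237, 272 and 258. DNAJA4 had 39.6, 56.3 and 41.6 from 175, 237 and 180 reads, with CM highest at a log2 ratio of 0.51 (0.22 to 0.80) against IM. No DNAJA gene passed 1.5-fold.

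DNAJB genes include the heat-inducible J proteins. DNAJB1, the major one of the cytosol, was lowest in CMT, at 308, 294 and 218 UQRPKM, a log2 ratio of -0.43 (-0.62 to -0.24) against CM and -0.49 (-0.68 to -0.31) against IM. Immediate early genes that respond to tissue handling were also lowest in CMT. The listed ones summed to 3378, 2808 and 1501 UQRPKM. Of 9 genes tested, 8 were called lower in CMT than in CM, where 9.97% of all mRNA genes were. The part of these genes in the value of DNAJB1 was not tested. DNAJB4, its close relative, differed less, at 82.0, 90.9 and 76.4 UQRPKM.

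DNAJB5, another cytosolic relative of DNAJB1, had 20.4, 33.9 and 39.7 UQRPKM, from 50, 79 and 95 reads. IM was the low library, with log2 ratios of 0.73 (0.20 to 1.27) in CM and 0.96 (0.45 to 1.48) in CMT, and CM and CMT differed by 0.23 (-0.22 to 0.68). The sum of the mesothelial markers had the same order of libraries, although KRT18 among them was lowest in CMT. The part of these markers was not tested. DNAJB13, a J protein of sperm flagella and cilia, passed the thresholds on 2, 9 and 7 reads. Its log2 ratio of 2.24 in CM versus IM had an interval from -0.03 to 5.49 and did not pass the exact test. Among the ER members, DNAJB11 had 119, 130 and 119 UQRPKM and DNAJB9 had 63.2, 72.2 and 65.6. DNAJB12 and DNAJB14, anchored in the ER membrane, had 292, 279 and 241 and 43.6, 58.8 and 49.4. DNAJB2, which carries clients to the proteasome, had 215, 185 and 181. None of the last 5 genes reached 1.5-fold.

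DNAJC genes share only the J domain, and many have a fixed place in the cell. DNAJC7, which passes clients between HSP70 and HSP90, led the group at 676, 734 and 611 UQRPKM. DNAJC6, or auxilin, which strips clathrin from vesicles together with HSPA8, differed most. It had 15.2, 31.0 and 12.1 UQRPKM, from 120, 233 and 93 reads. CM was the high library, with log2 ratios of 1.03 (0.70 to 1.36) in CM versus IM and -1.37 (-1.73 to -1.01) in CMT versus CM, and the interval of CMT versus IM, from -0.74 to 0.06, included 0. Liver markers were high in the same library, and their part was not tested. DNAJC13, a J protein of the endosome, had 47.3, 45.8 and 39.8 UQRPKM.

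DNAJC8, a protein of the spliceosome, was the only gene called higher in CMT than in CM. It had 167, 133 and 255 UQRPKM, from 380, 289 and 570 reads. CMT was the high library, with log2 ratios of 0.94 (0.73 to 1.15) against CM and 0.61 (0.42 to 0.81) against IM. Skeletal muscle markers were high in the same library, and their part was not tested. DNAJC17, also linked to splicing, had 114, 112 and 99.7 UQRPKM.

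DNAJC24 makes diphthamide on elongation factor 2, and DNAJC28 is an uncharacterised member. DNAJC24 was highest in CM, at 19.1, 29.6 and 18.6 UQRPKM, but from only 23, 34 and 22 reads, and both intervals against CM included 0. DNAJC28 had 20.2, 24.8 and 14.9 UQRPKM, and its log2 ratio of -0.73 (-1.17 to -0.31) in CMT versus CM passed the thresholds. DNAJC15, an inner membrane protein of mitochondria that restrains respiration, lay just under the threshold in CM versus IM, at 222, 334 and 258 UQRPKM. Its log2 ratio there was 0.58 (0.34 to 0.83). DNAJC19, of the import motor, had 266, 332 and 284, and DNAJC30 had 39.7, 55.9 and 42.1. DNAJC11, which joins the complex that shapes cristae, ran the other way at 362, 322 and 275.

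The remaining DNAJC genes lay within 1.5-fold. In the ER, DNAJC3, a J protein that HSPA5 works with, had 135, 153 and 183 UQRPKM, and DNAJC10, a disulphide reductase, had 224, 276 and 281. Both were lowest in IM, with log2 ratios of 0.44 (0.23 to 0.64) and 0.33 (0.15 to 0.51) in CMT versus IM. DNAJC1 had 140, 149 and 127. DNAJC14 was highest in IM, at 359, 318 and 285, while DNAJC21, which takes part in ribosome assembly, was highest in CM at 117, 145 and 122. DNAJC4 had 235, 269 and 261 UQRPKM. DNAJC12, DNAJC16, DNAJC25 and DNAJC27 all lay between 16.6 and 42.9 UQRPKM. DNAJC12, which attends the aromatic amino acid hydroxylases, had 29 to 37 reads a library.

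**Figure D5:**
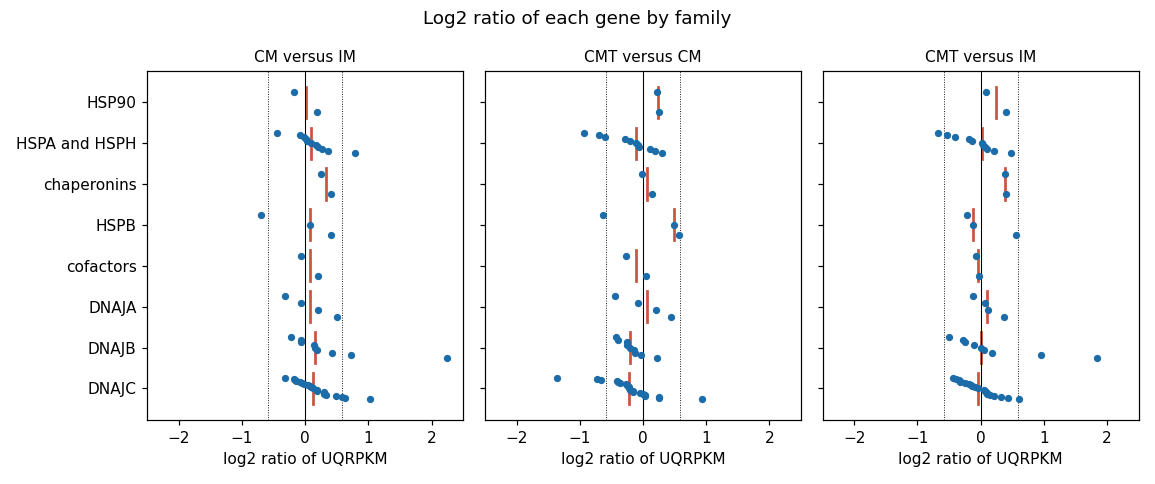
Log2 ratio of UQRPKM for each gene that reached 1 UQRPKM in each library, by family on the vertical axis and comparison by panel, with a red bar at the family median and dotted lines at 1.5-fold. The 21 DNAJC genes have medians of 0.12, -0.22 and -0.03 from the left panel to the right, and both chaperonins lie right of 0 in the 2 comparisons with IM.

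Grouped by place in the cell, the 10 ER chaperones summed to 2996, 3332 and 3459 UQRPKM. Against IM, 8 of them had a ratio above 1 and 2 below in CM, their median being 0.16 on the log2 scale, where 6108 of 14123 mRNA genes had a ratio above 1. In CMT the numbers against IM were again 8 and 2, with a median of 0.07, where 5938 of 14151 mRNA genes lay above 1. CMT against CM had 5 above and 5 below, with a median of -0.03, where 6670 of 14098 lay above 1. HSPA13 was the only one past 1.5-fold. The ratio of HSP90B1 to HSPA5, per length, was 0.904, 0.961 and 1.17. The 9 mitochondrial chaperones summed to 7328, 8456 and 8777 UQRPKM. Their median log2 ratio was 0.30 for CM against IM, -0.22 for CMT against CM and 0.09 for CMT against IM. DNAJC28, counted in this list although uncharacterised, was the only one past 1.5-fold, in CMT versus CM. Of a list of 13 cytosolic chaperones compiled as heat-inducible, 8 carried the listed names and 7 reached 1 UQRPKM. The list included the constitutive HSPA8, and its inducible HSPA1A, HSPA1B and HSPA6 were not among the names in the files. None of the 7 passed 1.5-fold in any comparison. Of all mRNA genes with at least 1 UQRPKM in every library, 67.2% also stayed under 1.5-fold. In the order used for the mitochondrial chaperones, the medians of the 7 were -0.03, -0.11 and -0.10. The same medians over all mRNA genes were -0.06, -0.02 and -0.08. The heat-inducible HSP27 (HSPB1), deposited under another name, was not among the 7. Its log2 ratios were -0.72, 0.81 and 0.09 in the same order, and all but the last passed 1.5-fold.

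Cochaperones, regulators and other chaperones outside the name rule were followed as a list of 48 genes, of which 45 were in the files and 43 reached 1 UQRPKM. Of these 43, CM had 1 called lower than IM, where 10.4% of all mRNA genes were called lower. CMT had 1 higher and 1 lower than CM, where 9.53% and 9.97% of all were. Against IM, CMT had 3 called lower, where 11.9% of all were. HSF2, a heat shock transcription factor, had 16.9, 23.7 and 36.9 UQRPKM and was called higher in CMT against both other libraries. HSF1, the factor that drives the heat shock response, had 326.5, 269.5 and 302.8 and was not called. AHSA2, a relative of the HSP90 activator, had 23.9, 10.7 and 11.6 UQRPKM and was highest in IM. The activator AHSA1 had 138, 99.2 and 90.1 and was called lower in CMT than in IM. CRYAB, in this list too, was the gene called lower in CMT than in CM. The HSP90 partners of steroid receptors stayed within 1.5-fold in all comparisons. FKBP4 had 1659, 1376 and 1926 UQRPKM, FKBP5, whose gene is itself an androgen target, had 300.5, 283 and 269, and PTGES3, or p23, had 242, 247 and 269. STIP1, which links HSP70 to HSP90, had 770, 605 and 713.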

How the data were processed

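RNA of the pigs in each group was pooled, and each of the 3 pools gave 1 library of single-end Ion Proton reads. The authors removed adaptors and ambiguous or low-quality reads, mapped the rest to Sscrofa10.2 with MapSplice, and deposited modified RPKM values (UQRPKM), which divide by a library's upper quartile where RPKM divides by all mapped reads. The tool that counted reads, its treatment of reads that fit several genes, and the gene annotation are not given in the sources used here.

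Values were analysed with Python 3.11.15, NumPy 2.4.6, pandas 2.3.3 and SciPy 1.17.1. Reads were recovered as value × upper quartile × length at the shortest length up to 120000 bases that made all libraries whole to a relative error of 1e-08. The upper quartiles, from the commonest ratio between low values, were 149, 142 and 146 for IM, CM and CMT. Whole reads were found for 100% of 20838 genes above 0. Tested on simulated data, the recovery was at times too low by a factor common to the 3 libraries, in which case the intervals are too wide, and was not otherwise wrong. At the median recovered length of 1973 bases, 3 reads are worth 1.02, 1.07 and 1.04 UQRPKM.

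Log2 ratios used no pseudocount. Calls required a 1.5-fold difference and at least 1 UQRPKM in both libraries, over all mRNA genes, with no test between groups because each is 1 library. The study's DEGSeq package was not run. Its MA-plot formula and an exact binomial test on reads, both with Benjamini-Hochberg adjustment and a limit of 0.05, were alternatives, tested on simulated data. Named genes were the members called in any comparison, the 10 highest by mean level, the highest of each family and those listed at 0 or near it, with other members given by value. One gene of the cochaperone list is not reported here, and the genes of that list called higher than in IM are therefore not counted. The members and the gene lists were chosen with earlier results of these data known. No protein, promoter or coordinate is shown, since no sequence was used here and the gene table describes another build.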

Additional observations from a re-analysis of the deposited data

How the results depend on the processing

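No paired analysis was possible because each group is 1 library. Counts of genes called higher and lower are given for CM versus IM, then CMT versus CM, then CMT versus IM, and stood at 5 and 1, 1 and 7, and 3 and 1. The tests compare libraries only. With the exact binomial test they were 3 and 0, 1 and 6, and 2 and 1, and with the MA-plot formula of DEGSeq 0 and 0, 1 and 3, and 1 and 1. The exact test with no limit on the fold, chosen after seeing the data, gave 17 and 8, 9 and 14, and 11 and 11. A fold change of 2 left 2 and 0, 0 and 1, and 1 and 0. Scaling by total UQRPKM or by the median of ratios moved log2 ratios by at most 0.08 and gave 6 and 1, 2 and 6, and 4 and 1. Both ended the only call of HSPA2, whose log2 ratio in CMT versus CM was then -0.58, and added DNAJC15, HSPB8 and HSPB11 to the genes called higher in the 3 comparisons in turn. A minimum of 10 UQRPKM left 4 and 1, 1 and 7, and 2 and 1, without DNAJB13. The median of ratios put the members' median log2 ratio at 0.20 for CM against IM and 0.11 for CMT against IM. A pseudocount of 1 or no minimum level changed none of these counts. All 99 alternative values of the 11 genes stayed within the counting interval. The sign changed only for DNAJC24 in CMT versus IM, where the log2 ratio was close to 0. It went from -0.035 to 0.009 scaled by total UQRPKM and 0.045 scaled by the median of ratios. Pooling leaves the spread between pigs unknown, and depth limits DNAJB13, DNAJC22, DNAJC24 and HSPB3.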
